A study of Mus musculus with 8 samples.

Results

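Olfactory receptor genes form the largest gene family of the mouse genome and sit in dense clusters on many chromosomes. They were examined here for DNA copy number in mouse liver tumours. Members were the autosomal probes whose gene name on the array starts with Olfr, and neighbouring members within 1 Mb of each other were joined into a cluster. The rule gave 693 probes of 608 genes among 220065 autosomal probes, in 43 clusters. Of these clusters, 25 held at least 5 probes (660 probes together) and 10 held a single probe. Of the 608 genes, 604 matched a RefSeq gene table (GRCm38.p6, used for names only), 598 of them as protein coding and 5 as transcribed pseudogenes.

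Genomic DNA came from male C57BL/6 mice. The 6 hepatocellular carcinomas (tumours 1 to 6) grew in FEAT transgenic mice aged 16, 21, 20, 18.5, 22 and 12 months. A single normal liver came from a FEAT transgenic mouse of 13 months and a single one from a wild-type mouse of 6 months, so neither non-tumour group has replicates. All 8 samples were labelled with Cy3 and set against Cy5-labelled DNA of a wild-type normal liver at 6 months of age. The promoter that drives the transgene is not stated in the labels used here. Tumours 1 to 5 were older than both non-tumour mice, and for them tumour and age cannot be told apart. The values given throughout are log2 ratios, test DNA over reference DNA, centred on each array's autosomal median, so that a value above 0 means more test DNA than the array's typical probe.

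Olfactory receptors are G protein-coupled receptors with several membrane-spanning helices, and each olfactory neuron expresses a single one of them. The class I receptors, the older group that resembles fish receptors, lie in a single large cluster on chromosome 7, around the beta-globin genes, and the class II receptors are spread over the other clusters. The family grew by repeated local duplication, so neighbouring genes are often close copies and many clusters hold copy number differences between strains and wild mice. In liver DNA such clusters can be set against the DNA that flanks them.

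The probes of the family were close to those of other genes in base composition and brightness. Their mean GC content was 36.7%, against 36.6% for the other autosomal probes, and their median red signal on the wild-type array was 998 against 933. On that array 99.7% of Olfr probes were well above background. Of the 693 probes, 3 shared a run of 20 bases with another autosomal probe on the array, on either strand, and none shared one with a probe of another Olfr gene. The 8-letter word most enriched in the family, among all words held by at least 10 Olfr probes, was CATAGGAG or its reverse complement. It was found in 10 of 693 Olfr probes (1.44%) and in 425 of 219372 other autosomal probes (0.194%), counting both strands. The word was picked on these probes for its excess, so this is a description of how little sequence the probes of the family share.

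The probes printed next are those whose single values or short stretches are described further on, with 3 steady probes for contrast. Sequences and positions are those of the scanner file, which names no genome build, and capitals mark the word CATAGGAG. The probe of Olfr234 gave the lowest value of the family on any array and lies at chr15:98484337-98484386. The probe of Olfr908 gave the lowest value in a tumour and lies at chr9:38446345-38446404. The probes of Olfr370 (chr8:82120471-82120529) and Olfr1090 (chr2:86598308-86598363) gave the highest values on the wild-type array. The probes of Olfr855 (chr9:19459515-19459574), Olfr77 (the last of its 4, chr9:19795977-19796036) and Olfr601 (chr7:99407703-99407762) lie in short stretches called as gained. Those of Olfr1305 (chr2:111723428-111723487), Olfr1370 (chr13:20438419-20438478) and Olfr1232 (chr2:89169222-89169281) hold the word and varied least between arrays among the probes that do, with SDs of 0.11, 0.12 and 0.13 over the 8 arrays.
Olfr234: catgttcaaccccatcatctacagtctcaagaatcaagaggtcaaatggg
Olfr908: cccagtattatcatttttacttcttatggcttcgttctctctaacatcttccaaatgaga
Olfr370: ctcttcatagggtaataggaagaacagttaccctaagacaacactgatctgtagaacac
Olfr1090: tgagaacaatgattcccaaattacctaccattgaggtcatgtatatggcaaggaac
Olfr855: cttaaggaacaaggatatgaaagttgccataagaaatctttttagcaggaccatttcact
Olfr77: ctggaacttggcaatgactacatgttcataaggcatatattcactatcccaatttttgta
Olfr601: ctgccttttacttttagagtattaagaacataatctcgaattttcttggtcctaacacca
Olfr1305: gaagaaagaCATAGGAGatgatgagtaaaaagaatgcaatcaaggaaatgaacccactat
Olfr1370: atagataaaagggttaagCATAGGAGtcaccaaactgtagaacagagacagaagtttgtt
Olfr1232: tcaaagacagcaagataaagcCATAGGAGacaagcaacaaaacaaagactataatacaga

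Before the results, 3 facts of the arrays bear on them. Tumour 4 was the noisiest array, with a noise SD of 0.487 between neighbouring probes, against 0.221 to 0.360 on the others. On the FEAT normal array 1 value was repeated over 6809 spots, and on tumour 3 another was repeated over 305 spots. These were treated as missing and removed 23 Olfr probes from the FEAT normal array and 0 from tumour 3. On all arrays the ratio also moved with the brightness of the probe: with all autosomal probes in 4 equal groups by signal, Olfr probes of the dimmest group averaged 0.28 over the tumours and those of the brightest -0.21. Other autosomal probes gave 0.29 and -0.25, so the family followed the general pattern.

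**Figure D1:**
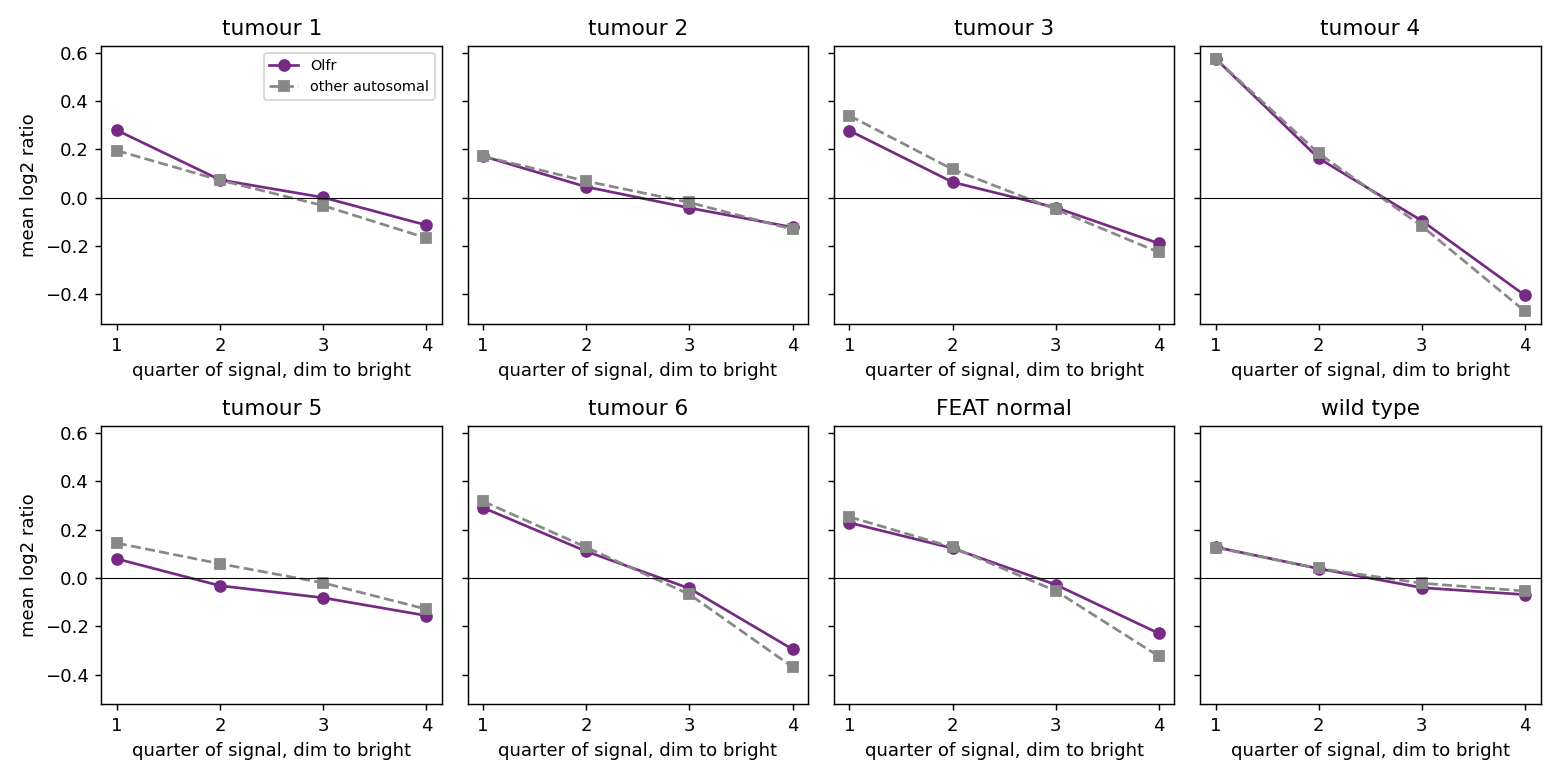
Mean log2 ratio (vertical axis) by probe brightness on the wild-type array in 4 equal groups (horizontal axis, dim to bright), for Olfr probes (circles) and other autosomal probes (squares), with 1 panel per array. The ratio falls from dim to bright on every array, most steeply in tumour 4, where Olfr probes go from 0.57 to -0.40, and least in the wild-type liver, where they go from 0.13 to -0.07.

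Losses of chromosomes 7 and 9 in tumour 5 held 233 of the 335 calls made on Olfr probes over the 8 arrays. Each array had been divided into stretches of even ratio, called gained from 0.2 upwards and lost from -0.2 downwards. In tumour 5, 233 of 684 Olfr probes lay in lost segments, which is 34.1%, against 11.6% of all autosomal probes. A further 31 Olfr probes of that tumour (4.53%) lay in gained segments, against 13.9% of all probes. The family has 159 of its 693 probes on chromosome 7 and 85 on chromosome 9, and in tumour 5 all 157 measured Olfr probes of chromosome 7 and 76 of 84 on chromosome 9 were in lost segments. On the same chromosomes 99.9% and 99.4% of all probes were lost, so that on these chromosomes the family was lost with nearly all other probes.

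The lost segments of tumour 5 were wide and shallow. The largest ran over chr7:59945130-121859625 with a mean of -0.25 and held 144 Olfr probes, among them the class I cluster. Both other lost segments of chromosome 7 that held Olfr probes had means of -0.24 and -0.27. On chromosome 9 the segment chr9:22231055-70886487 had a mean of -0.30 and held 57 Olfr probes. Tumour 5 also gained chr1:150315981-194916389, with a mean of 0.31 and 20 Olfr probes, the Olfr16 to Olfr414 cluster. In all, 5 clusters of tumour 5 lay wholly within losses, 3 wholly within gains, and 1 partly within a loss.

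The other tumours had fewer receptor genes in called segments. Tumour 1 had 36 of 680 Olfr probes in lost segments (5.29%), against 9.83% of all probes, and 15 in gained segments (2.21%), against 4.21%. Its losses covered 24 measured probes of the Olfr722 to Olfr1508 cluster on chromosome 14 and its gains the 6 probes of the Olfr257 to Olfr234 cluster on chromosome 15, in a segment with a mean of 0.30. Tumour 4 had 19 of 687 Olfr probes in gained segments (2.77%), against 7.01% of all probes, and 0 in lost segments, against 0.656%. Of those 19, 12 made up the Olfr172 to Olfr207 cluster on chromosome 16, in a segment with a mean of 0.26. Tumours 2, 3 and 6 and the FEAT normal liver had no Olfr probe in a called segment, and the wild-type liver had 1. On these arrays 0.00506% to 0.0639% of all probes were called in each direction. These shares come from 1 array each and were not tested.

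**Figure D2:**
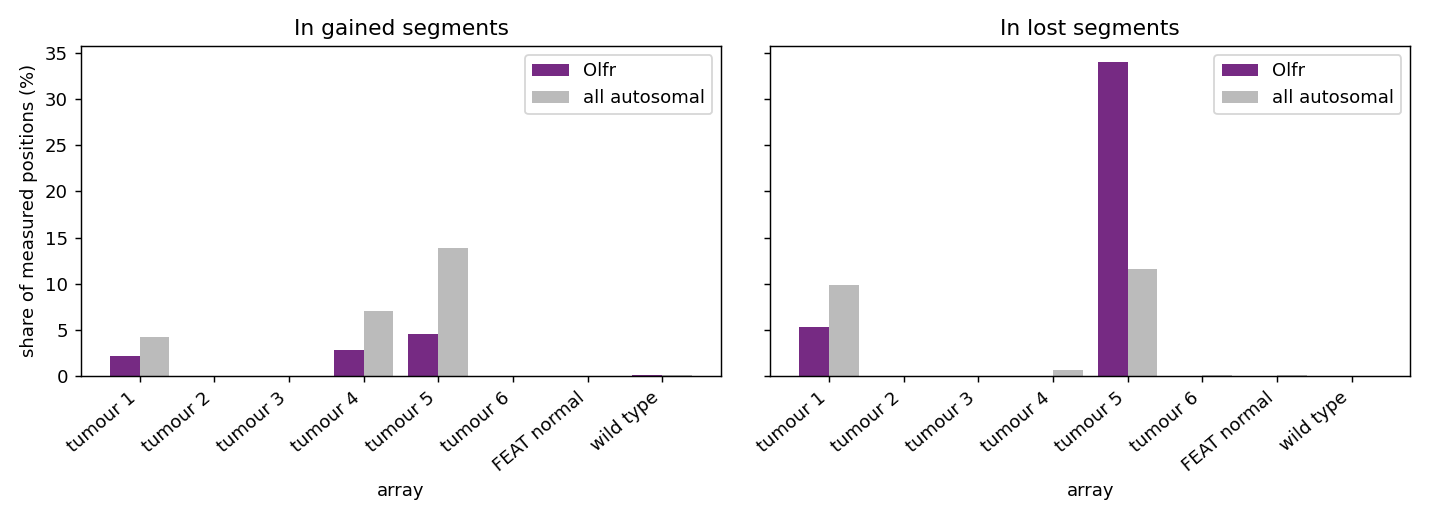
Share of measured Olfr probes (purple bars) and of all autosomal probes (grey bars) in gained (left) and lost (right) segments, in percent, for each of the 8 arrays. In tumour 5 the lost share of the family is 34.1% against 11.6% for all probes, while its gained share is 4.53% against 13.9%.

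Clusters stood near the level of the DNA around them in tumour 5, and the relation differed between arrays. For each of the 25 clusters the mean of its Olfr probes was set beside the mean of the nearest 50 other probes on each side. In tumour 5, the array with the widest range of flank levels, flanks ran from -0.31 to 0.32 and clusters from -0.29 to 0.33. Cluster and flank levels correlated across the 25 clusters with r = 0.93, given as a description, since all clusters share the array. The class I cluster on chromosome 7 stood at -0.26 with flanks at -0.26, and the Olfr16 to Olfr414 cluster on chromosome 1 at 0.33 with flanks at 0.32. The correlation was 0.65 in tumour 2, 0.51 in tumour 1, 0.49 in the FEAT normal liver and 0.26 in tumour 4, and it was 0.00 in tumour 3 and -0.09 in tumour 6. On the wild-type array, where flanks stayed between -0.05 and 0.08, it was -0.05.

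**Figure D3:**
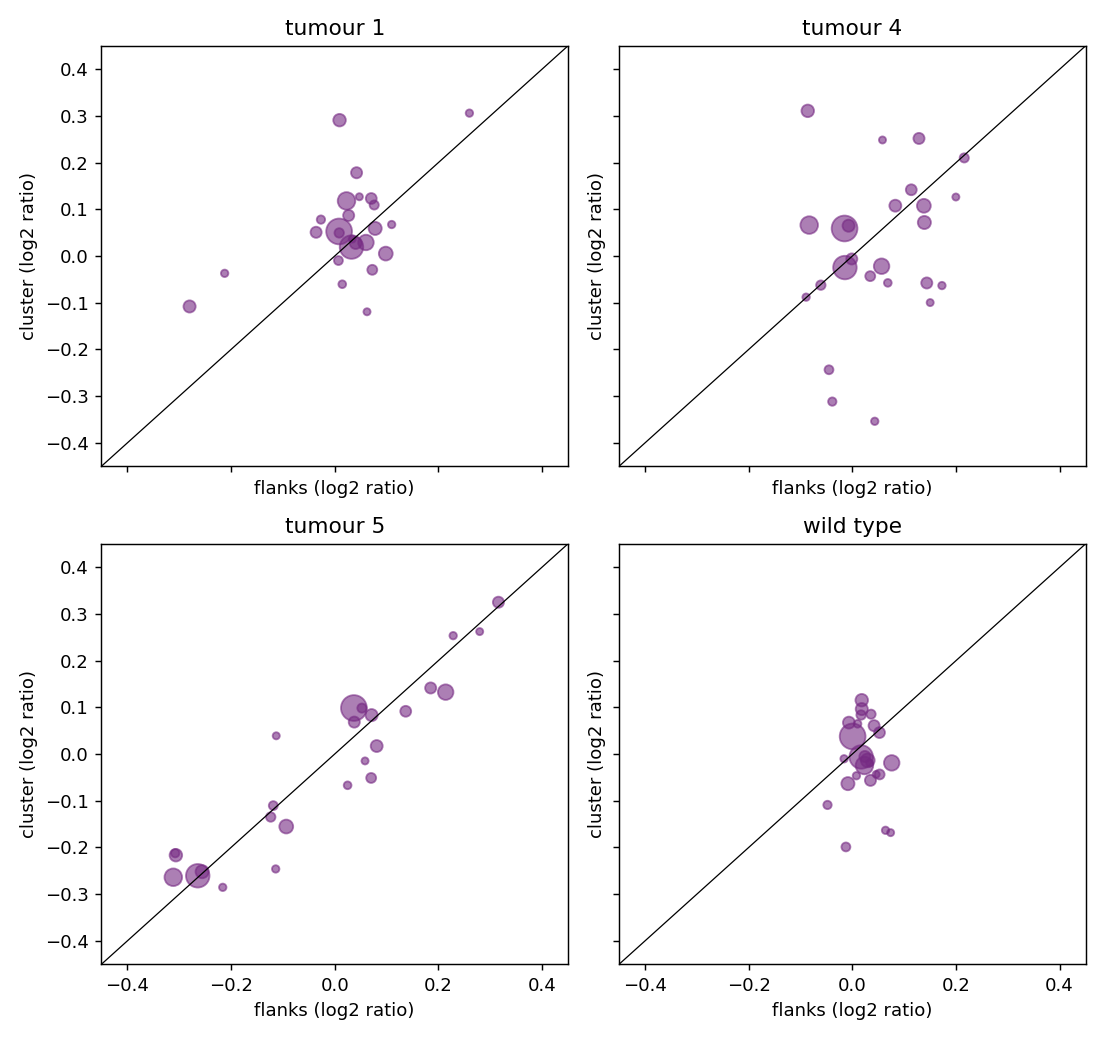
Mean log2 ratio of each of 25 Olfr clusters (vertical axis) against that of its flanks (horizontal axis) in tumours 1, 4 and 5 and the wild-type liver. Point size grows with the number of Olfr probes and the line marks equal values. In tumour 5 the points follow the line from -0.31 to 0.32, whereas in the wild-type liver the flanks stay between -0.05 and 0.08.

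The local difference, cluster minus flanks, was small in the largest clusters. The Olfr992 to Olfr142 cluster on chromosome 2 holds 131 probes of 119 genes over 4.85 Mb, the most of the family. Its local differences in tumours 1 to 6 were 0.04, 0.01, 0.00, 0.07, 0.06 and 0.07, with 0.02 in the FEAT normal and 0.04 in the wild-type liver. The class I cluster, Olfr547 to Olfr692 on chromosome 7, holds 108 probes of 90 genes, among them Olfr78 and Olfr558, receptors for short-chain fatty acids. It gave -0.01, 0.00, -0.03, -0.01, 0.00 and -0.09 in the tumours and -0.02 in both non-tumour livers. In neither cluster did the tumours separate from the non-tumour livers.

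The Olfr878 to Olfr986 cluster on chromosome 9 (58 probes) gave 0.10, 0.05, 0.01, 0.15, 0.05 and 0.10 in the tumours, 0.05 in the FEAT normal and -0.05 in the wild-type liver. The Olfr1418 to Olfr1500 cluster on chromosome 19 (44 probes) was below 0 on all 8 arrays, from -0.13 in tumour 3 to -0.03 in the FEAT normal liver. The Olfr9 to Olfr827 cluster on chromosome 10 (34 probes) ran from -0.13 in the FEAT normal liver to -0.01 in tumour 2. Next in size was the Olfr693 to Olfr518 cluster on chromosome 7 (30 probes), with -0.07 in tumour 4 as its lowest value and 0.00 in tumour 5 as its highest. All 6 largest clusters thus stayed within 0.2 of their flanks on every array.

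A local difference of at least 0.2 in either direction occurred in 14 of 200 pairs of a cluster and an array. Tumour 4 had 6 of the 25 clusters past this limit, against 23.6% of 21927 tiles of 10 consecutive other autosomal probes measured in the same way. Tumour 6 had 2, against 11.2% of tiles, and the FEAT normal liver 2, against 9.11%. The wild-type liver also had 2, against 2.62% of tiles. Tumours 1 and 3 had 1 each, against 4.87% and 8.82%. Tumours 2 and 5 had 0, against 2.44% and 2.11%. Counts over 25 clusters are small, and tumour 4, the noisiest array, was the only one with more than 2. Among the 17 clusters of at least 10 probes, 4 pairs were past the limit.

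The largest positive difference was that of the Olfr24 to Olfr873 cluster on chromosome 9, with 27 probes of 22 genes. It gave 0.28, 0.06, 0.14, 0.40, 0.09 and 0.27 in tumours 1 to 6, 0.15 in the FEAT normal and 0.10 in the wild-type liver, above 0 on all 8 arrays. The tumours overlapped the non-tumour livers. Its probes were dimmer than their flanks, with a median red signal of 549 against 987. For the correction used here and below, brightness was taken from both signals of the wild-type array, the only one with scanner output. On the wild-type array these are also the signals that form its ratio. After correction of every array for this brightness, a step chosen after the data had been seen, the values were 0.18, -0.02, -0.01, 0.12, 0.02, 0.10, 0.02 and 0.05. None of these was past 0.2.

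Within this cluster a stretch of 57 probes, chr9:19411195-19974922, was called gained in tumour 1 with a segment mean of 0.27. It holds 9 Olfr probes, among them Olfr855 and the 4 probes of Olfr77. In tumour 5 the losses of chromosome 9 stopped at chr9:19503271 and resumed at chr9:20053646, and 8 Olfr probes between them were in a segment at -0.10, short of the limit. On the wild-type array a shorter stretch of 11 probes, chr9:19459515-19556376, was called gained at 0.46. The 57 probes had a median signal of 571 against an autosomal median of 925. The 14 of them brighter than the autosomal median averaged 0.05, 0.01, -0.04, -0.29, -0.25, -0.14, -0.05 and -0.06 on the 8 arrays in the same order. The 43 dimmer ones averaged 0.38, 0.23, 0.30, 0.45, -0.06, 0.27, 0.20 and 0.20. The dim probes were thus higher than the bright ones on all 8 arrays, though below 0 in tumour 5. Among other autosomal probes, the dimmest of the 4 brightness groups averaged 0.19, 0.17, 0.34, 0.58, 0.14, 0.32, 0.25 and 0.13 in that order. The next group averaged 0.07, 0.07, 0.12, 0.18, 0.06, 0.13, 0.13 and 0.04. The part of brightness in this stretch was not tested.

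Single probes of that stretch showed the same range. The Olfr855 probe gave 1.20, 0.67, 1.09, 1.53, -0.46 and 0.15 in tumours 1 to 6, 0.23 in the FEAT normal and 0.41 in the wild-type liver, with a red signal of 156. The Olfr77 probe printed above gave 0.76, 0.65, 0.70, 1.30, 0.04 and 0.64 in the tumours, 0.89 in the FEAT normal and 0.05 in the wild-type liver. Both were high in several tumours and lowest in tumour 5, but the FEAT normal liver lay within the tumours' range in both cases.

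Each of the 6 clusters that passed the limit below 0 had brighter probes than its flanks. This was not particular to them, since many clusters that stayed within the limit were also brighter than their flanks. Among these were Olfr1418 to Olfr1500 (median red signal 1363 against 817), Olfr547 to Olfr692 (1085 against 865) and the cluster described next. Others within the limit were dimmer, such as Olfr992 to Olfr142 (966 against 1157). The Olfr20 to Olfr411 cluster on chromosome 11 (15 probes) was lower than its flanks on all 8 arrays, from -0.14 to -0.08, with a median red signal of 1446 against 730 in the flanks. After correction for brightness it ran from -0.09 in tumour 2 to 0.08 in tumour 4. The Olfr257 to Olfr234 cluster on chromosome 15 (6 probes, red signal 2559 against 998) gave -0.40 in tumour 4 and -0.29 in the FEAT normal liver, and -0.14 and -0.16 after correction. Its FEAT normal mean includes the Olfr234 probe, which gave -2.06 there. The median of the 6 probes in that liver was -0.12, with flanks at -0.12, so the FEAT normal difference rests on a single probe.

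The other clusters past the limit had 5 to 20 probes. The Olfr1416 to Olfr1411 cluster on chromosome 1 (5 probes) reached -0.25 in tumour 4 and -0.24 in the wild-type liver. The Olfr309 to Olfr292 cluster on chromosome 7 (6 probes) reached -0.24 in tumour 4 and -0.23 in the wild-type liver. Both were thus low in the tumour 4 and the wild-type array together. The Olfr522 to Olfr45 cluster on chromosome 7 (9 probes) gave -0.27 in tumour 4, and the Olfr90 to Olfr137 cluster on chromosome 17 (20 probes), beside the major histocompatibility complex, gave -0.20 there. In tumour 4 a gained segment, chr17:35948040-40979296 with a mean of 0.25, began inside the Olfr90 to Olfr137 cluster. It held 6 of the 20 probes, and the cluster's flanks stood at 0.14. The Olfr164 to Olfr168 cluster on chromosome 16 (5 probes) gave -0.21 in tumour 6 and -0.24 in the FEAT normal liver, and the Olfr62 to Olfr1338 cluster on chromosome 4 (6 probes) gave 0.23 in tumour 3. After correction for brightness 1 of the 14 pairs was still past 0.2, the Olfr309 to Olfr292 cluster in the wild-type liver at -0.21. The share of tiles past 0.2 after this correction is not given here, so the fall cannot be called particular to the clusters. Brightness moved with these differences, and its part in each was not tested beyond this correction.

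**Figure D4:**
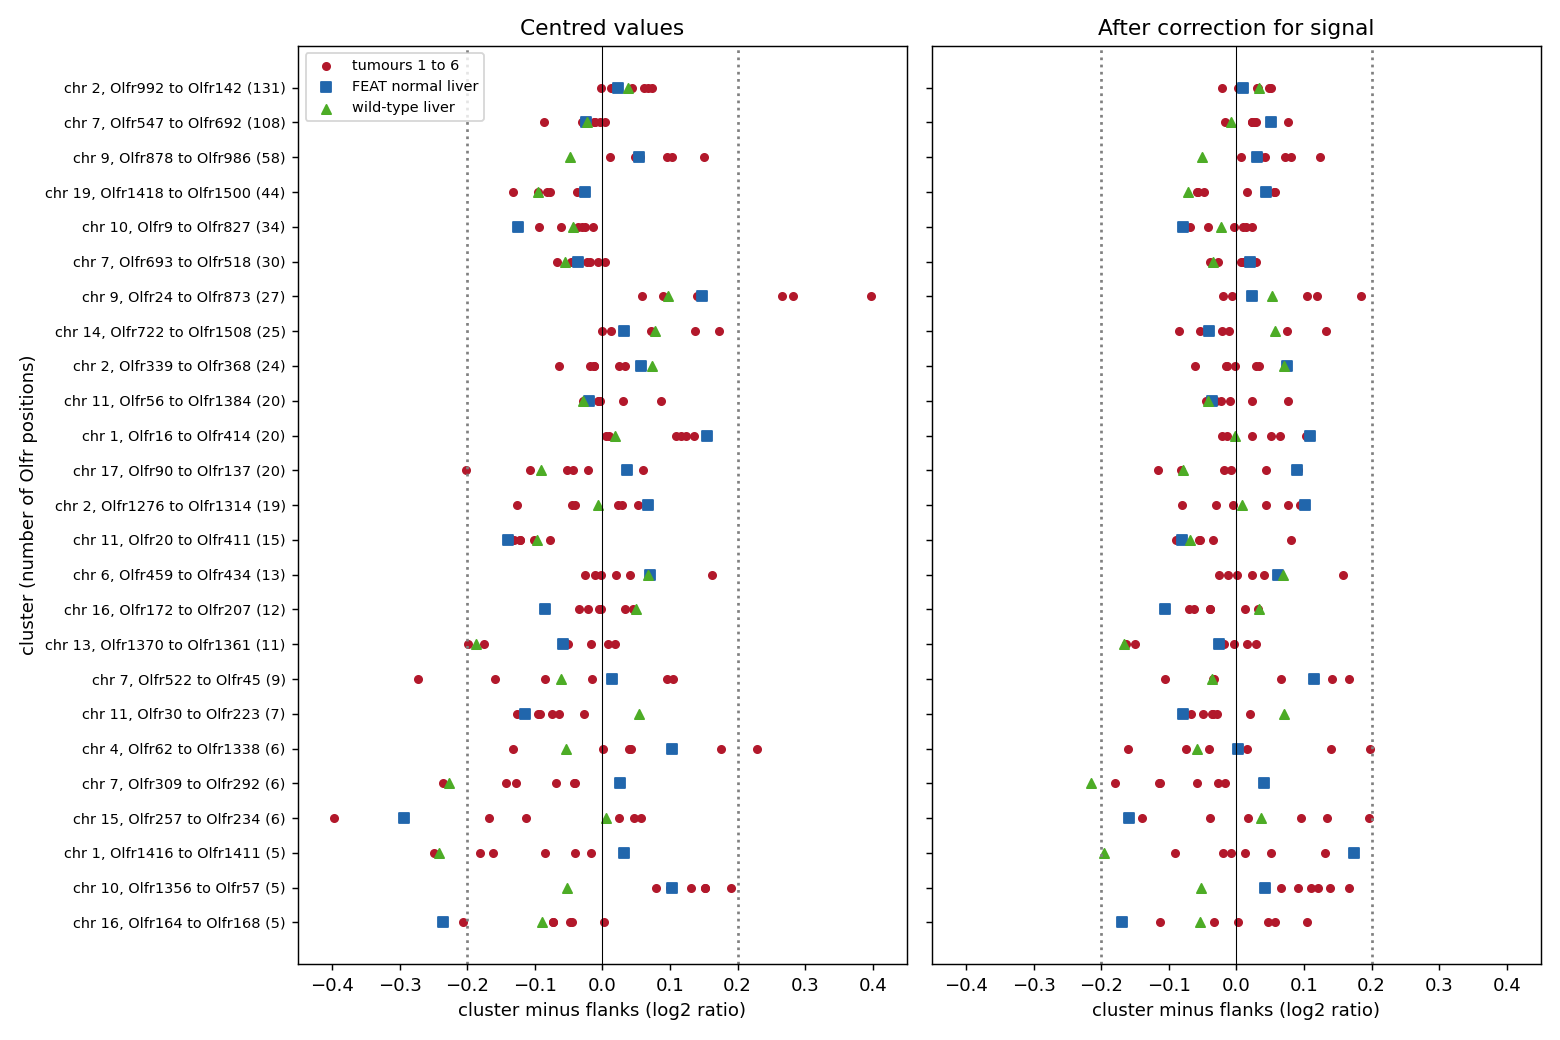
Local difference in log2 ratio, cluster minus flanks (horizontal axis), for 25 Olfr clusters ordered by size (vertical axis), as centred (left) and after correction for probe brightness (right). Red circles are the 6 tumours, the blue square the FEAT normal liver and the green triangle the wild-type liver, and dotted lines mark 0.2 in either direction. The Olfr24 to Olfr873 cluster reaches 0.40 on the left, and only the Olfr309 to Olfr292 cluster in the wild-type liver, at -0.21, lies beyond a line on the right.

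No cluster differed between the 6 tumours and the 2 non-tumour livers in limma with Benjamini-Hochberg adjustment. None of 25 clusters passed an adjusted p of 0.05, nor did any of the 21952 clusters and tiles fitted together (0%). At an unadjusted p under 0.05 there were 0 clusters, against 2.42% of all features. Tumour minus non-tumour differences ran from -0.07 to 0.11 with a median of 0.01, and their standard errors from 0.05 to 0.10. The Olfr1356 to Olfr57 cluster on chromosome 10 (5 probes) had the highest difference, 0.11 (SE 0.06, limma unadjusted p = 0.0755, adjusted p = 1.00). Its tumours gave 0.08, 0.13, 0.10, 0.19, 0.15 and 0.15, against 0.10 in the FEAT normal and -0.05 in the wild-type liver. The next were Olfr164 to Olfr168 at 0.09 (SE 0.06), Olfr24 to Olfr873 at 0.08 (SE 0.08), Olfr878 to Olfr986 at 0.07 (SE 0.06) and Olfr1370 to Olfr1361 on chromosome 13 at 0.05 (SE 0.07).

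At the other end, the Olfr339 to Olfr368 cluster on chromosome 2 (24 probes) had the lowest difference, -0.07 (SE 0.05). Its tumours lay between -0.06 and 0.03 and the non-tumour livers at 0.06 and 0.07. Of the 25 clusters, 1 (this cluster) had tumours wholly below both non-tumour livers, against 2.35% of tiles, and 0 had them wholly above, against 2.25%. The next lowest were Olfr30 to Olfr223 on chromosome 11 at -0.05 (SE 0.06), Olfr1276 to Olfr1314 on chromosome 2 at -0.05 (SE 0.06), Olfr459 to Olfr434 on chromosome 6 at -0.04 (SE 0.06) and Olfr90 to Olfr137 at -0.03 (SE 0.07). All differences of the 25 clusters were under 2 standard errors.

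Among single probes, none of the 659 Olfr probes measured on all 8 arrays passed the adjusted limma threshold, and none of all 212008 such probes did (0%). At an unadjusted p under 0.05 there were 20 Olfr probes (3.03%), against 2.18% of all probes. The tumours lay wholly above both non-tumour livers in 11 Olfr probes (1.67%), against 2.09% of all, and wholly below in 13 (1.97%), against 1.68%. The Olfr1212 probe on chromosome 2 gave 0.46, 0.77, 0.73, 0.47, 0.66 and 0.58 in the tumours against -0.13 in the FEAT normal and 0.18 in the wild-type liver. The Olfr354 probe on chromosome 2 gave 0.10, 0.25, -0.31, 0.21, 0.48 and -0.04 against -0.70 and -0.38. Both probes were dim, at percentiles of 4.43 and 7.39 of the autosomal signals. The 10 neighbours of Olfr1212 averaged 0.15 to 0.28 in the tumours, 0.20 in the FEAT normal and 0.11 in the wild-type liver. Those of Olfr354 averaged -0.05 to 0.08, against -0.08 and -0.06. The Olfr1090 probe gave 0.02 to 0.37 in the tumours, against 0.43 and 1.49. Of the 3 probes of Olfr558, 1 gave -0.65 to -0.19 against 0.02 and 0.02, while the groups overlapped in the other 2. The Olfr1090 probe and the Olfr558 probe without overlap were brighter, at percentiles of 72.6 and 90.1.

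With the FEAT normal liver alone as control, 1 Olfr probe passed, Olfr234 (difference 2.20, SE 0.36, limma adjusted p = 0.0400), as did 272 probes in all. This rests on a single value. The Olfr234 probe gave -2.06 in the FEAT normal liver, and 0.52, 0.27, 0.22, -0.48, 0.66 and -0.32 in the tumours and -0.02 in the wild-type liver. The mean of its 10 neighbouring probes in the FEAT normal liver was 0.03. The low value was held by 1 probe, and the probes beside it were near 0. That probe also set the low FEAT normal mean of the Olfr257 to Olfr234 cluster described above.

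The Olfr908 probe had the lowest value of the family in a tumour, in tumour 6. It gave 0.01, -0.15, -0.29, -0.66, -0.26 and -1.86 in tumours 1 to 6, -0.28 in the FEAT normal and -0.15 in the wild-type liver. The mean of its 10 neighbours in tumour 6 was 0.29, above 0 while the probe was far below. High single values on the wild-type array came from the Olfr370 probe, at 1.64 with neighbours at -0.13, and from the Olfr1090 probe, at 1.49 with neighbours at 0.05. The Olfr845 probe, in the Olfr24 to Olfr873 cluster, gave 1.24 there with neighbours at 0.09 and lay between -0.69 and 0.30 in the tumours. Other probes high there were not high there alone. The Olfr648 probe gave 1.32 with neighbours at -0.08, but also 1.33 in tumour 2. A probe of Olfr1443 gave 1.29 with neighbours at -0.09, and it was at 0.67 or above on all 8 arrays. These wild-type values were each held by a single probe whose neighbours averaged between -0.13 and 0.09.

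**Figure D5:**
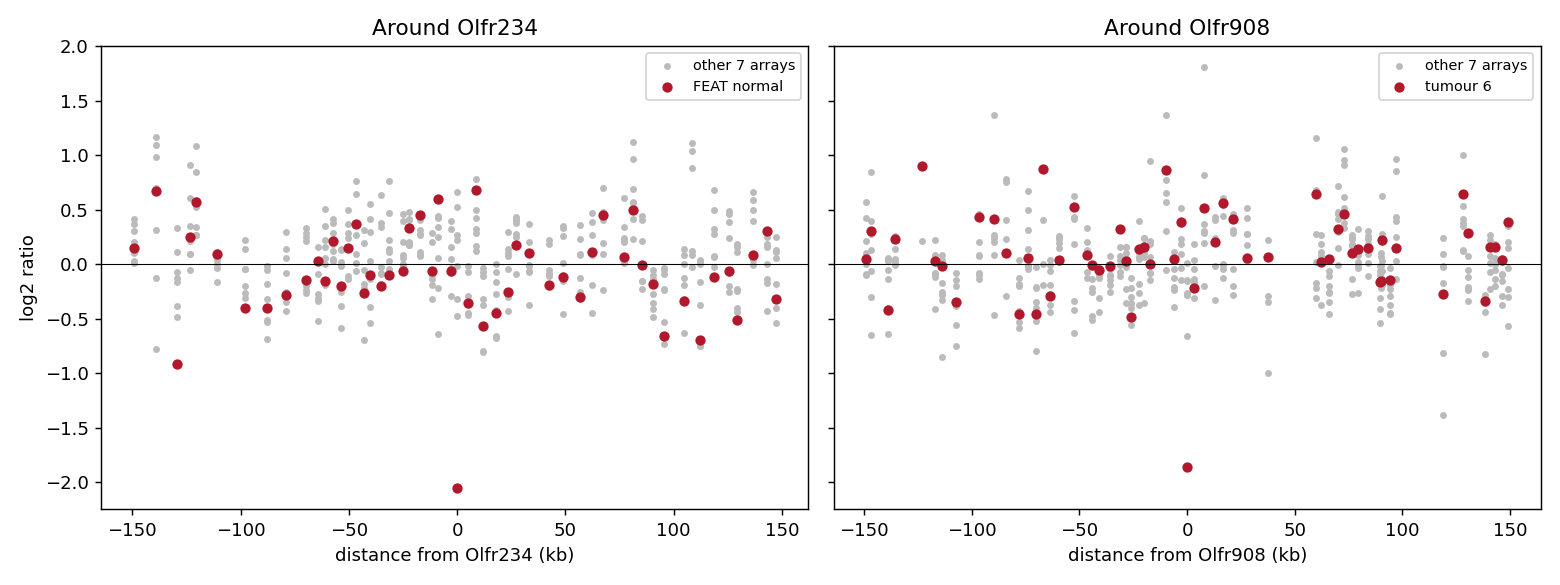
Log2 ratios (vertical axis) of all probes by distance in kb (horizontal axis) from the Olfr234 probe (left) and the Olfr908 probe (right). Red points are the FEAT normal liver on the left and tumour 6 on the right, and grey points are the other 7 arrays. The probe at 0 kb stands at -2.06 and -1.86 and the 10 nearest probes average 0.03 and 0.29.

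Probes at or beyond 1 in either direction on any array numbered 45 of 693 (6.49%), against 7.6% of all autosomal probes. Tumour 4 had 27 such values, all at or above 1, which is 3.93% of its Olfr probes against 4.73% of all autosomal probes. The Olfr601 probe of the class I cluster reached 1.74 in tumour 4 with a red signal of 59.9, and its stretch of 9 probes, chr7:99398200-99437208, was called gained there with a mean of 0.94. It gave 0.64, 0.35, -0.25, 0.36 and 1.12 in the other 5 tumours and had no value in either non-tumour liver. The Olfr1048, Olfr716, Olfr807, Olfr564 and Olfr555 probes, which were also among the most variable of the family, likewise had no value in the non-tumour livers and were dim, at percentiles of 0.37 to 1.59 of the autosomal signals.

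Genes with more than 1 probe show how far the levels of probes of the same gene differ. This includes any offset that a probe keeps on all arrays, and other gene families were not counted in this way. Of 45 such genes, 31 had probe means that differed more among themselves than the gene's mean differed between arrays. The median SD was 0.190 between probes of a gene and 0.137 between arrays. These SDs are not like for like, since the SD between arrays is that of a mean over the gene's probes. Olfr56 on chromosome 11, with 13 probes, the most of the family, gave means from -0.04 to 0.05 on the 8 arrays (SD 0.03). Its probes differed by an SD of 0.30. A level from a single probe, which is what 563 of the 608 genes have, thus carries any offset of that probe. An offset kept on all arrays does not alter a difference between arrays.

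Receptors with known ligands were taken by name, without regard to their values but after the files had been seen. Olfr73, a receptor for eugenol, gave 1 probe with a tumour mean of -0.39 ± 0.25 (SD, n = 6), -0.62 in the FEAT normal and -0.05 in the wild-type liver. The Olfr1440 probe, a receptor for muscone, gave -0.62 ± 0.26 (SD, n = 6), against -0.68 and -0.37. Olfr16, a receptor for lyral, gave 0.55 ± 0.60 (SD, n = 6), up to 1.60 in tumour 4, against 0.08 in the wild-type liver. The Olfr16 probe had no value in the FEAT normal liver and was not in the fit. The other 7 genes were Olfr15, Olfr17, Olfr78, Olfr90, Olfr124, Olfr558 and Olfr691, and the tumour means of their probes ran from -0.37 for 1 probe of Olfr558 to 0.42 for Olfr124, with 0.04 for Olfr15 and -0.11 for Olfr17. Apart from Olfr16, all were in the fit, and none passed the adjusted limma threshold.

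Medians of other receptor families and of the olfactory signalling genes are given beside that of the family, and the differences between these lists were not tested. The median tumour minus non-tumour difference was -0.02 for the 659 Olfr probes, -0.01 for all probes, -0.01 for the vomeronasal receptors (74 probes) and -0.04 for the taste receptors (28 probes). For the trace amine receptors it was -0.11, over 6 probes. For 27 olfactory signalling and receptor choice genes, with 417 probes, it was -0.05. Among them the calcium-activated chloride channel gene Ano2 (44 probes) gave -0.19 to 0.08 over the 8 arrays, and Kirrel3, an axon sorting adhesion gene on chromosome 9 (71 probes), gave -0.30 in tumour 5 and -0.18 to 0.02 elsewhere. Zinc finger genes, another family of local copies (1204 probes), gave -0.01. No probe of these lists passed the adjusted threshold, since 0 of 212008 did.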

How the data were processed

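Copy number was measured on 2-colour Agilent 244A arrays of genomic DNA in 8 mouse livers. The deposited value table holds log2 ratios. Scanner output was at hand for the wild-type array, and there the table equalled the scanner's deposited log10 ratio after a change of sign and of base, plus 0.0014. Scale and direction of the other 7 arrays rest on the labels' dyes, and all pairs of arrays correlated above 0 (smallest r = 0.275). Per the file headers, the deposited intensity values came from Agilent Feature Extraction 9.1.3.1, protocol CGH-v4_91; per the series description, CGH analytics 3.4 followed. Deposited flags marked as other values were used only in an alternative. No source used here names the genome build.

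Spots of a probe were averaged and each array centred on its autosomal median, without loess. Values repeated over 100 times on an array were set to missing, a step added after the values were seen, as were the correction for brightness and, for clusters, the alternative without marked probes. Segments came from penalised least squares (penalty factor 2, at least 5 probes, limit 0.2). Clusters and tiles (limma 3.58.1 in R 4.3.3) were fitted in 1 table of 21952 features, and probes in 1 of 212008, with the non-tumour livers pooled and assumed to vary like the tumours. Simulated data had independent noise, with 200 features or probes shifted together. Of those shifted by 0.3, 94.5% of features and 0% of probes were recovered, and of those shifted by 1, 86% of probes. Recovery of a lone shifted cluster was not simulated. Members, lists and tests were chosen with earlier results of these data known. Named clusters were the 6 with most probes, the 5 highest and 5 lowest differences and all past 0.2. Named probes were the 5 highest and lowest without overlap, the 10 most variable and the 5 extremes of each non-tumour liver. Other genes named were chosen after their values were seen, except receptors with known ligands, which were taken by name. The Olfr probes on chromosome X (5) were not used. Python 3.11.15, numpy 2.4.6 and pandas 2.3.3 were used. The word length of 8 was taken after no word of 9 letters was held by 10 or more Olfr probes, and earlier searches for coding motifs of the receptors matched few Olfr probes and are not reported here.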

Additional observations from a re-analysis of the deposited data

Results flagged for a closer look

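Among 57 sets of 4 to 6 tumour values (20 named clusters and 37 named probes), 7 had 1 tumour far from the others by Dixon's criterion, where chance gives about 2.85. In the Olfr459 to Olfr434 cluster the local difference was 0.16 in tumour 6, with the next at 0.04. In the Olfr164 to Olfr168 cluster it was -0.21 in tumour 6, with the next at -0.07. The Olfr803 probe gave 1.35 in tumour 4, with the next at 0.22. The Olfr908 probe gave -1.86 in tumour 6, with the next at -0.66. The Olfr374 probe gave -0.16 in tumour 2, with the next at 0.67. The Olfr424 probe gave -0.51 in tumour 3, with the next at 0.17. The Olfr1443 probe gave 1.50 in tumour 4, with the next at 0.83. The Olfr908 probe was named for its spread and Olfr803 for its lack of overlap. Olfr374, Olfr424 and Olfr1443 were named for extreme values in a non-tumour liver. Both clusters were named for their tumour minus non-tumour differences, and Olfr164 to Olfr168 also for passing 0.2. These 7 were thus chosen by values of the same data, so that the count is not independent of how they were chosen.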

How the results depend on the processing

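The count of cluster and array pairs past the local limit, 14, was 58 at a limit of 0.1 and 2 at 0.3, and 4 among clusters of at least 10 probes. It was 1 after correction for brightness, a setting for which no share of tiles is given. With normexp on the wild-type array the count there was 1 in place of 2. Other flanks, joining distances, medians, GC correction and removal of marked probes kept it within 1.5 times. Olfr probes in called segments over the 8 arrays, 335, became 961 at a limit of 0.1 and 33 at 0.3. At 0.1 the gained share of Olfr probes exceeded that of all probes in tumour 1 (23.8% against 9.31%) and tumour 2 (16.8% against 1.25%). The same held in tumour 4 (30.7% against 24.9%) and the wild-type liver (4.41% against 0.31%), whereas tumour 5 had 14.2% against 24.3%. The lost share at 0.1 was 43.9% against 32.6% in tumour 5 and 6.18% against 15.5% in tumour 1. At 0.3 tumour 5 had 0.292% lost against 1.06%. These shares were not tested. No cluster passed limma's adjusted threshold under any alternative run, and the only Olfr probe to pass was 1, with the FEAT normal liver as sole control. Leaving out any tumour gave 0 clusters and 0 probes. The direction of 15 of 20 named cluster differences turned under at least 1 alternative, in 38 of 432 values, all with a limma adjusted p of at least 0.832. Without flanks, the turned values (clusters by leading gene) were 0.047 for Olfr1416, -0.033 for Olfr62, -0.049 for Olfr547, -0.0093 for Olfr878, 0.042 for Olfr90, 0.012 for Olfr1418. After correction for brightness, they were 0.024 for Olfr1416, 0.0018 for Olfr309, 0.0085 for Olfr1418. With the wild-type liver alone, they were 0.12 for Olfr1416, 0.12 for Olfr309, 0.0055 for Olfr522, -0.00022 for Olfr9, -0.097 for Olfr257, 0.030 for Olfr90, 0.019 for Olfr1418. After GC correction, they were -0.018 for Olfr992, -0.0072 for Olfr547. With the FEAT normal liver alone, they were -0.044 for Olfr62, 0.035 for Olfr30, -0.011 for Olfr1370. With medians, they were 0.029 for Olfr459, 0.037 for Olfr30, -0.17 for Olfr257, 0.0021 for Olfr1418. With flanks of 20 probes, they were 0.029 for Olfr309, 0.013 for Olfr1418. With flanks of 200 probes, they were 0.0090 for Olfr309, -0.012 for Olfr547. Joined within 2 Mb, they were -0.0068 for Olfr547, -0.0068 for Olfr693. Leaving out each tumour gave -0.038 to 0.0080 for Olfr1416, -0.023 to 0.016 for Olfr309, -0.0049 to 0.013 for Olfr547, -0.064 to 0.012 for Olfr522. The cause of these turns was not tested. No paired analysis was possible because the 2 non-tumour groups have 1 array each. Noise limited single probes more than clusters and tiles: of 200 simulated shifts of 0.3 planted together, 94.5% of features and 0% of probes were recovered. These shares do not give the power to find a lone shifted cluster.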
